A study of Homo sapiens with 6 samples.

Results

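The genes described here are 32 components and regulators of B cell receptor signalling, measured in 2 human lymphoma lines derived from the diffuse large B-cell type, in which mature B cells have turned malignant. They were chosen by name for their role in the pathway, with Fc receptor genes left out and with earlier results of these data known. Of the 32 genes, 31 had a probe set annotated to that gene alone on the Affymetrix HG-U133 Plus 2.0 array, and PIK3AP1 was not analysed here. A further gene, CR2, was too dim for the filter, so that 30 of the 13036 genes tested in the whole series were members. Each gene was read from its brightest probe set, meaning the one with the highest mean over the 6 arrays. All levels are deposited log2 MAS5 signals, which have no unit of abundance and cannot be compared between probe sets of different genes.

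The KARPAS-422 and Pfeiffer lines were transduced with a lentivirus whose short hairpin either silences EZH2 (shEZH2) or has no human target (shNTC), with 10 days stated for each arm. In KARPAS-422 there were 2 arrays with shEZH2 and 2 with shNTC, which the titles call biological replicates. In Pfeiffer there was 1 array with shEZH2 and 1 with shNTC. All 4 groups shared infection with polybrene at 8 µg/ml, medium with 10% serum, and selection in puromycin at 1 µg/ml, for which day 2 is stated. A single hairpin sequence was used per arm, and nothing in the labels says that the replicates were separate infections. The p-values therefore cover no more than array-to-array spread, which may be technical. The cells were selected pools measured in bulk, in which fewer cells of a type and less RNA per cell cannot be told apart. The comparisons follow the design, which sets knockdown against control hairpin in each line.

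The B cell receptor is a surface immunoglobulin that signals through the paired chains CD79A and CD79B. When antigen binds, SRC-family kinases such as LYN phosphorylate these chains and recruit SYK, which with BTK and the adaptor BLNK activates phospholipase C gamma and phosphoinositide 3-kinase. Calcium, diacylglycerol and phosphoinositides then carry the signal to NFAT, RAS and NF-kappaB, while CD22, CD72 and the phosphatases SHP-1 and SHIP-1 restrain it. EZH2, the target of the hairpin, is the methyltransferase of the Polycomb complex PRC2, which marks histone H3 at silent genes.

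The hairpin sequence is shown because every knockdown comparison rests on it. Capitals mark its sense and antisense arms of 21 bases each, and the lower-case bases between them are the loop.
shEZH2 hairpin: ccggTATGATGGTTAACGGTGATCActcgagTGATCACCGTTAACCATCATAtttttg

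Promoters are shown for the 3 members that were highest in shEZH2 over shNTC in KARPAS-422 (CD72, PRKCB and RASGRP3) and for CD79A, the receptor chain that differed most between the lines. Each is the 250 bases before the first start listed by RefSeq (GRCh38.p14), read on the strand of the gene. CD72 lies on the minus strand with this window at chr9:35618414-35618663, PRKCB on the plus strand at chr16:23835733-23835982, RASGRP3 on the plus strand at chr2:33436098-33436347 and CD79A on the plus strand at chr19:41877029-41877278. Capitals mark matches to the octamer motif (ATGCAAAT), an ETS core (AGGAAGT) or an E box (CAGCTG), searched on both strands, and no marked matches overlap.
CD72: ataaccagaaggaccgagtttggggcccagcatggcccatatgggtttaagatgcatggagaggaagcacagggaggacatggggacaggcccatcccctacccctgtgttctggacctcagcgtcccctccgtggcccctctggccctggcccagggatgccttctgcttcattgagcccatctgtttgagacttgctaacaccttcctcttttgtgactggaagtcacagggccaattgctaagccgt
PRKCB: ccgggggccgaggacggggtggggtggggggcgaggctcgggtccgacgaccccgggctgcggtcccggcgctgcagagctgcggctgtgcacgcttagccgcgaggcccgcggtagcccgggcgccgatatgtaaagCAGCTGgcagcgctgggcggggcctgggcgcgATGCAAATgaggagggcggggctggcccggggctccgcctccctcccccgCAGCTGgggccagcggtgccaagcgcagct
RASGRP3: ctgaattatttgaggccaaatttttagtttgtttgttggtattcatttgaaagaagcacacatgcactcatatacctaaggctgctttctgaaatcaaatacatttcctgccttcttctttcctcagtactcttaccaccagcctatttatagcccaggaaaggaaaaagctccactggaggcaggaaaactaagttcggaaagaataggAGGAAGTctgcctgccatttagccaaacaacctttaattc
CD79A: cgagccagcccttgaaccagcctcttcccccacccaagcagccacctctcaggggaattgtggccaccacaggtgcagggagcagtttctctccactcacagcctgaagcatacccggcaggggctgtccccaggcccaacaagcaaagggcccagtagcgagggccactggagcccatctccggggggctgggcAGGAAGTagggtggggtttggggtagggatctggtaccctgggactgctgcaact

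The RefSeq table listed 41 promoters for 26 of the members and 35116 promoters in all. The octamer motif stood in 2 of the 41 members' promoters (4.88%) and in 1.63% of all promoters. The ETS core stood in 11 (26.8%) against 7.01% of all, and the E box in 8 (19.5%) against 14% of all. An EBF core (CCCNNGGG, not marked in capitals) stood in 14 (34.1%) against 17.1% of all, and an interferon response core in 1 (2.44%) against 3.02% of all. None of these strings stood in the CD72 window. CpG dinucleotides numbered 30 in the PRKCB window, 4 in each of the CD72 and CD79A windows and 1 in the RASGRP3 window, against a median of 8 over the members' promoters and 11 over all. A match in these letters is a description of the window and not a binding site.

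EZH2 was lower with its hairpin in both lines. Its single probe set read 10.52 and 10.55 in KARPAS-422 shEZH2, against 11.71 and 11.57 in KARPAS-422 shNTC, and 10.24 in Pfeiffer shEZH2, against 11.65 in Pfeiffer shNTC. The KARPAS-422 difference was -1.11 (SE 0.10, limma adjusted p = 7.73e-04), or 46.3% of the control signal, and the Pfeiffer signal was 37.6% of its control. Replicate arrays correlated over genes at r = 0.982 for KARPAS-422 shEZH2 and 0.978 for KARPAS-422 shNTC, and arrays of different lines at 0.724 to 0.753. Of 8 B cell markers, 6 lay above the median of all values on every array, among them PAX5 (12.60 to 13.33) and POU2AF1 (13.76 to 14.18). The other two were EBF1, at 6.01 and 6.02 in Pfeiffer, and TCL1A, at 5.94 on a KARPAS-422 shNTC array.

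In KARPAS-422, 9 of the 30 members tested rose with shEZH2 and 1 fell, at a limma adjusted p under 0.05. The 9 were CD79B, LYN, BANK1, DAPP1, RASGRP3, PRKCB, CD72, INPP5D and DOK3, and the gene that fell was PLCG2. Among all 13036 genes tested, 13.1% rose and 12.3% fell, so that the share of members that rose (30%) stood above the share of all genes and the share that fell (3.33%) below it. Without the KARPAS-422 shEZH2 replicate 1 array 3 members rose (10%, against 4.13% of all genes), and without shEZH2 replicate 2 it was 5 (16.7%, against 4.18%). With any of the 4 KARPAS-422 arrays left out 0 members fell in limma, and 1 to 4 were lower at an unadjusted p under 0.05. The median difference of the 30 members was 0.14 on the log2 scale, against -0.02 over all genes, and it was positive for 23 of 30 members, against 48.4% of all genes. The 2 shEZH2 arrays lay above both shNTC arrays for 16 members and below both for 5, and the arms overlapped for 9. The same count was not made over all genes, so it shows nothing particular to the members. Differences between replicates of 1 arm reached 1 log2 unit in 0 of 30 members in either arm, against 4.36% of all genes in shEZH2 and 5.99% in shNTC. The log2 difference between the 3' and 5' probe sets of ACTB, a measure of RNA integrity, was 0.138 and 0.175 in KARPAS-422 shEZH2, against 0.0593 and 0.0830 in shNTC, and its part in these differences was not tested. The same difference for GAPDH was -0.169 and -0.241 in shEZH2, against -0.182 and -0.158 in shNTC, which overlapped.

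**Figure D1:**
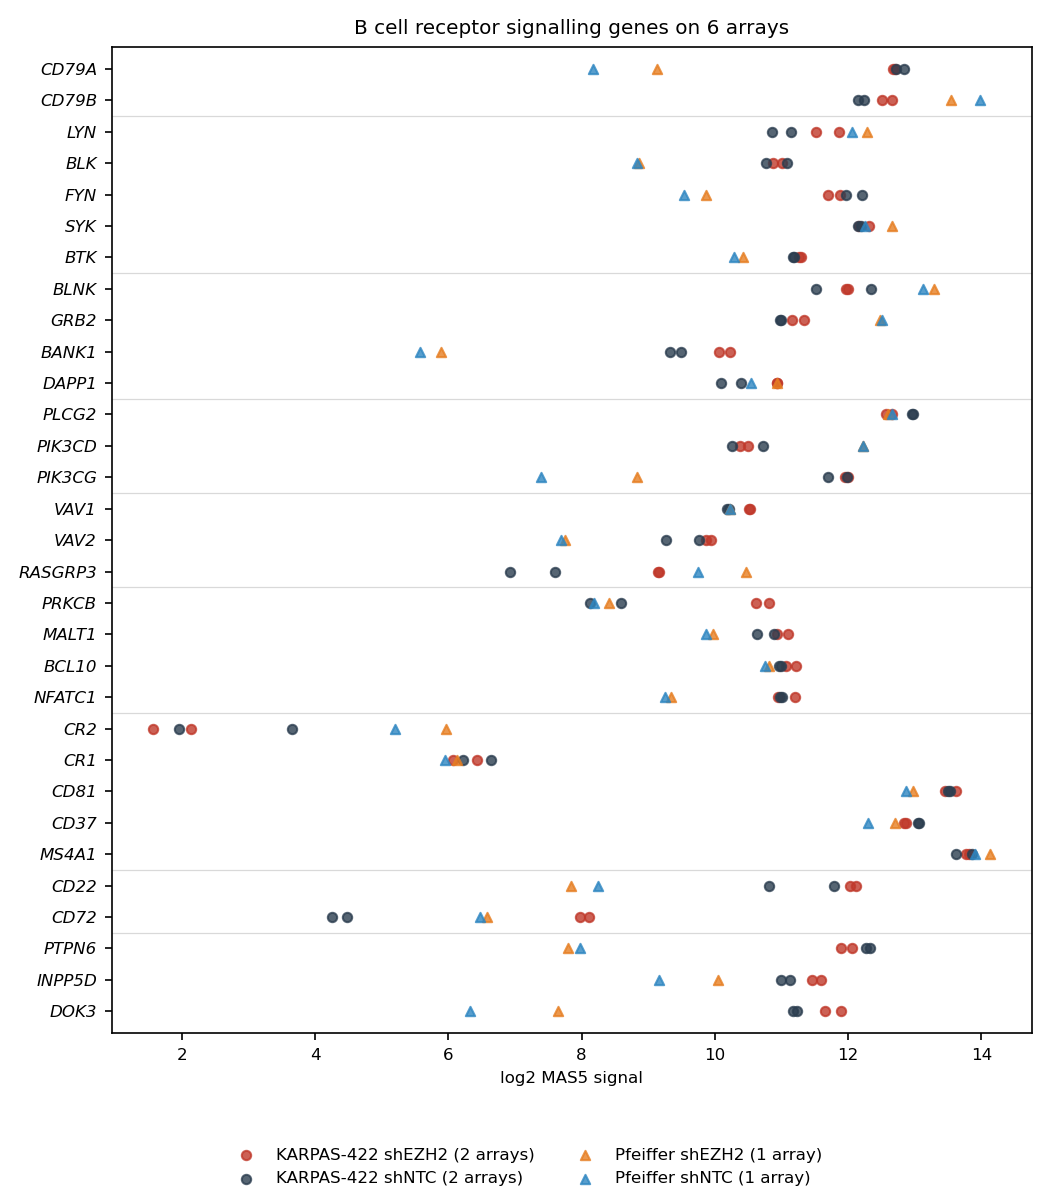
Log2 MAS5 signal (horizontal axis) of the brightest probe set of each of the 31 members with a probe set (vertical axis, by role) on each of the 6 arrays, 1 point per array, with the arms and lines told apart as in the legend. The shEZH2 points of KARPAS-422 stand clear of its shNTC points for CD72, PRKCB and RASGRP3, and CR2 lies below 6.21, the median of all deposited values, on every array.

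CD72 had the largest difference of the members. This C-type lectin is an inhibitory coreceptor that recruits SHP-1 to the receptor. It read 8.11 and 7.98 in KARPAS-422 shEZH2, against 4.48 and 4.25 in KARPAS-422 shNTC. Both shEZH2 arrays lay far above both shNTC arrays, and the control values were below 6.21, the median of all deposited values. The difference was 3.67 (SE 0.34, limma adjusted p = 8.1e-04), a 12.8-fold signal ratio whose size depends on how dim signals are treated: it was 2.93 with 16 added to every linear signal and 1.95 with 64 added.

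PRKCB encodes protein kinase C beta, which diacylglycerol activates and which signals towards NF-kappaB. It read 10.81 and 10.62 in KARPAS-422 shEZH2, against 8.13 and 8.59 in shNTC, so that the arms did not overlap. The difference was 2.36 (SE 0.19, limma adjusted p = 4.55e-04), a 5.12-fold ratio. All 6 of its probe sets passed the test, but 3 of them, with differences of 2.23, 2.53 and 3.80, reached the filter only through the shEZH2 arrays, so that they had to be higher there. The other 3 rose by 2.24 to 2.96. RASGRP3, a diacylglycerol-binding exchange factor that loads RAS with GTP, read 9.14 and 9.16 in shEZH2, against 7.60 and 6.92 in shNTC. The shEZH2 arrays were close together and above both controls, and the difference was 1.89 (SE 0.23, limma adjusted p = 0.00227), a 3.71-fold ratio. CD72, PRKCB and RASGRP3 kept an adjusted p under 0.05 whichever of the 4 KARPAS-422 arrays was left out.

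Of the 2 receptor signalling chains, CD79B rose and CD79A was near equal in both arms. CD79B read 12.66 and 12.50 in KARPAS-422 shEZH2, against 12.14 and 12.24 in shNTC, a difference of 0.39 (SE 0.09, limma adjusted p = 0.0168) between arms that did not overlap. CD79A read 12.70 and 12.67 in shEZH2, against 12.83 and 12.73 in shNTC, a difference of -0.09 with a 95% interval of -0.31 to 0.13. The CD79B call was lost without the shEZH2 replicate 1 array (0.31, limma adjusted p = 0.0944) and without the shNTC replicate 1 array (0.34, 0.0746).

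Among the 5 tyrosine kinases LYN rose, and SYK differed between its probe sets. LYN, the SRC-family kinase that starts both activating and inhibitory signalling, read 11.87 and 11.52 in KARPAS-422 shEZH2, against 11.14 and 10.85 in shNTC. The difference was 0.70 (SE 0.15, limma adjusted p = 0.0144), its 3 probe sets all rose (0.66 to 0.81), and without the shEZH2 replicate 1 array it was 0.52 with an adjusted p of 0.0991. SYK, the kinase that binds the phosphorylated receptor chains, read 12.31 and 12.17 in shEZH2, against 12.19 and 12.15 in shNTC, on its brightest probe set, a difference of 0.07 (limma adjusted p = 0.593). On its 3 other probe sets the differences were 0.87, 1.06 and 1.32, and all 3 rose in the fit of every kept probe set (limma adjusted p = 0.00364, 0.00232 and 0.00717). The brightest of these 3 read 12.24 and 11.96 in shEZH2, against 11.26 and 11.20 in shNTC. The SYK probe sets thus did not give a single answer in KARPAS-422. BLK, FYN and BTK, a SRC-family pair and the TEC-family kinase that phosphorylates phospholipase C gamma, differed by 0.02, -0.30 and 0.10 and did not pass the test.

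Among the adaptors, BANK1 and DAPP1 rose. BANK1, a B cell scaffold that binds LYN and inositol trisphosphate receptors, read 10.23 and 10.06 in KARPAS-422 shEZH2, against 9.33 and 9.50 in shNTC, a difference of 0.73 (SE 0.17, limma adjusted p = 0.0203). DAPP1, which binds the phosphoinositide products of phosphoinositide 3-kinase, read 10.94 and 10.93 in shEZH2, against 10.40 and 10.09 in shNTC, a difference of 0.69 (SE 0.13, limma adjusted p = 0.00973). For both genes every shEZH2 array lay above every shNTC array, and 2 of 3 BANK1 probe sets and 3 of 4 DAPP1 probe sets rose. Leaving out an array took the BANK1 adjusted p to 0.151 (without shEZH2 replicate 1), 0.0992 (without shEZH2 replicate 2) or 0.0658 (without shNTC replicate 1), at differences of 0.65, 0.82 and 0.65. The DAPP1 adjusted p was 0.0751 without shEZH2 replicate 1 and 0.0742 without shEZH2 replicate 2, at differences of 0.69 and 0.70. GRB2, which links receptors to SOS and RAS, differed by 0.26 (limma adjusted p = 0.0894). BLNK, the scaffold on which BTK meets PLCG2, read 11.96 and 12.00 in shEZH2, against 12.35 and 11.52 in shNTC, and its shEZH2 values lay between those of the controls. Its difference was 0.04, and without the shNTC replicate 1 array it was 0.46 (limma adjusted p = 0.026).

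PLCG2, phospholipase C gamma 2, which makes diacylglycerol and inositol trisphosphate, was the single member that fell. Its brightest probe set read 12.66 and 12.57 in KARPAS-422 shEZH2, against 12.98 and 12.96 in shNTC, a difference of -0.36 (SE 0.08, limma adjusted p = 0.015). The other 3 probe sets of PLCG2 had differences of 0.28, 0.56 and 0.30, of the opposite sign, and none of them passed the test. The call was lost without any of the 4 KARPAS-422 arrays: the difference was -0.40 and -0.32 without shEZH2 replicate 1 and 2 (limma adjusted p = 0.0542 and 0.0832), and -0.35 and -0.37 without shNTC replicate 1 and 2 (0.0642 and 0.0527). The phosphoinositide 3-kinase catalytic subunits PIK3CD and PIK3CG differed by -0.05 and 0.13 and did not pass the test. The RAC exchange factors VAV1 and VAV2 differed by 0.32 (limma adjusted p = 0.0615) and 0.39 (0.166). VAV2 read 9.94 and 9.87 in shEZH2, against 9.26 and 9.76 in shNTC, and its difference was 0.64 (0.0354) without the shNTC replicate 2 array.

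Of the NF-kappaB and NFAT members, PRKCB rose, and BCL10, MALT1 and NFATC1 did not pass the test. BCL10 and MALT1, which bind each other on the way to NF-kappaB, differed by 0.16 and 0.26, and 1 of the 3 MALT1 probe sets rose by 0.63 (limma adjusted p = 0.0338 over all kept probe sets). NFATC1, a calcium-activated transcription factor, differed by 0.09. MS4A1 (CD20), CD81 and CR1 differed by 0.05, 0.02 and -0.18, and CD37 by -0.20 (limma adjusted p = 0.0783), while 1 of 4 MS4A1 probe sets rose by 0.61 (0.0259 over all kept probe sets). CR2 (CD21), a complement receptor of B cells, read 1.57 and 2.13 in KARPAS-422 shEZH2 and 3.65 and 1.96 in KARPAS-422 shNTC, values too dim to order.

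On the inhibitory side, INPP5D and DOK3 rose beside CD72. INPP5D (SHIP-1), a phosphatase that removes the product of phosphoinositide 3-kinase, read 11.59 and 11.46 in KARPAS-422 shEZH2, against 11.13 and 10.99 in shNTC, a difference of 0.47 (SE 0.11, limma adjusted p = 0.0223), and its 3 probe sets all rose. DOK3, an adaptor that brings SHIP-1 to the receptor, read 11.89 and 11.66 in shEZH2, against 11.17 and 11.24 in shNTC, a difference of 0.56 (SE 0.13, limma adjusted p = 0.0189), and both of its probe sets rose. Neither gene had overlapping arms. The INPP5D call was lost without shEZH2 replicate 1 (0.40, limma adjusted p = 0.133), shEZH2 replicate 2 (0.53, 0.0766) or shNTC replicate 2 (0.39, 0.0805). The DOK3 call was lost without shEZH2 replicate 1 (0.45, limma adjusted p = 0.132), shEZH2 replicate 2 (0.68, 0.0618) or shNTC replicate 1 (0.53, 0.0557). PTPN6 (SHP-1), the phosphatase that CD22 and CD72 recruit, read 11.89 and 12.05 in shEZH2, against 12.33 and 12.27 in shNTC, and its difference of -0.33 did not pass the test (limma adjusted p = 0.0647).

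CD22, the sialic acid-binding inhibitory coreceptor, depended on a single control array. It read 12.02 and 12.13 in KARPAS-422 shEZH2, against 11.79 and 10.81 in shNTC. The arms did not overlap, but the controls lay further apart from each other than the means of the arms did. The difference of 0.78 (SE 0.28) had a limma adjusted p of 0.0797, and without the shNTC replicate 1 array it was 1.26 with an adjusted p of 7.4e-04. The 4 CD22 probe sets had differences of 0.68 to 1.02, and none of them passed the test in the fit of every kept probe set.

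**Figure D2:**
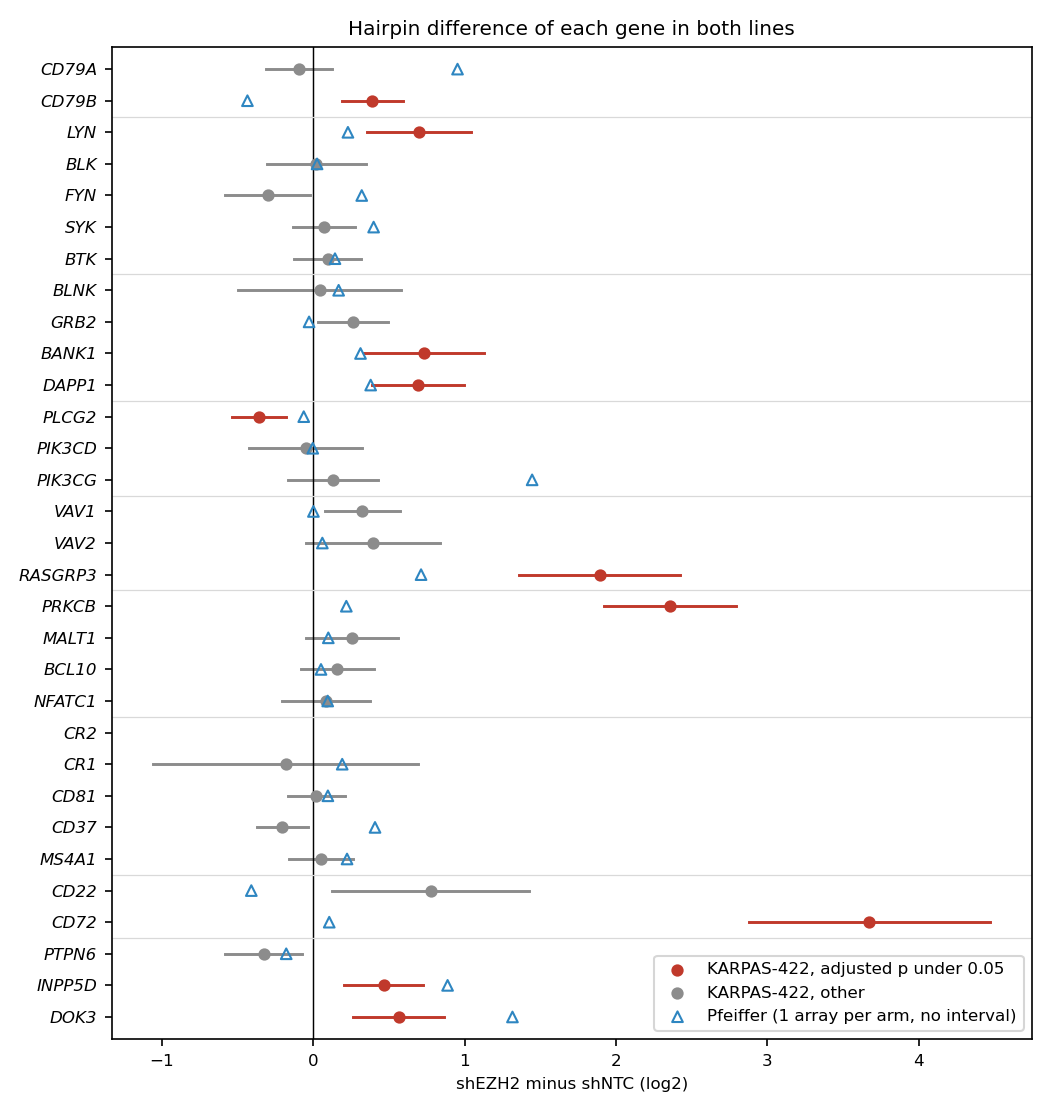
Difference shEZH2 minus shNTC on the log2 scale (horizontal axis) for each tested member (vertical axis, by role) in KARPAS-422 (circles, red where the adjusted p was under 0.05), with its 95% interval from limma, and in Pfeiffer (triangles), with 1 array per arm and no interval; the row of CR2, not tested, is empty. CD72 at 3.67, PRKCB at 2.36 and RASGRP3 at 1.89 stand apart from the other members in KARPAS-422, and PIK3CG at 1.45 and DOK3 at 1.32 lie farthest right in Pfeiffer.

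Of the 30 members tested, 22 had more than 1 kept probe set. Taken as single features, 27 of the members' 80 kept probe sets rose in KARPAS-422 (33.8%) and 1 fell (1.25%), against 12.4% and 9.1% of all 25186 kept probe sets. Of these 27, 3 PRKCB probe sets reached the filter only through the shEZH2 arrays where they were high, which leaves 24. The probe sets that rose belonged to 12 genes, namely the 9 above and SYK, MALT1 and MS4A1. Probe sets of 1 gene share their transcripts and are not independent. For 3 members, CR1, GRB2 and PLCG2, a further kept probe set had a KARPAS-422 difference of the opposite sign to the brightest.

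**Figure D3:**
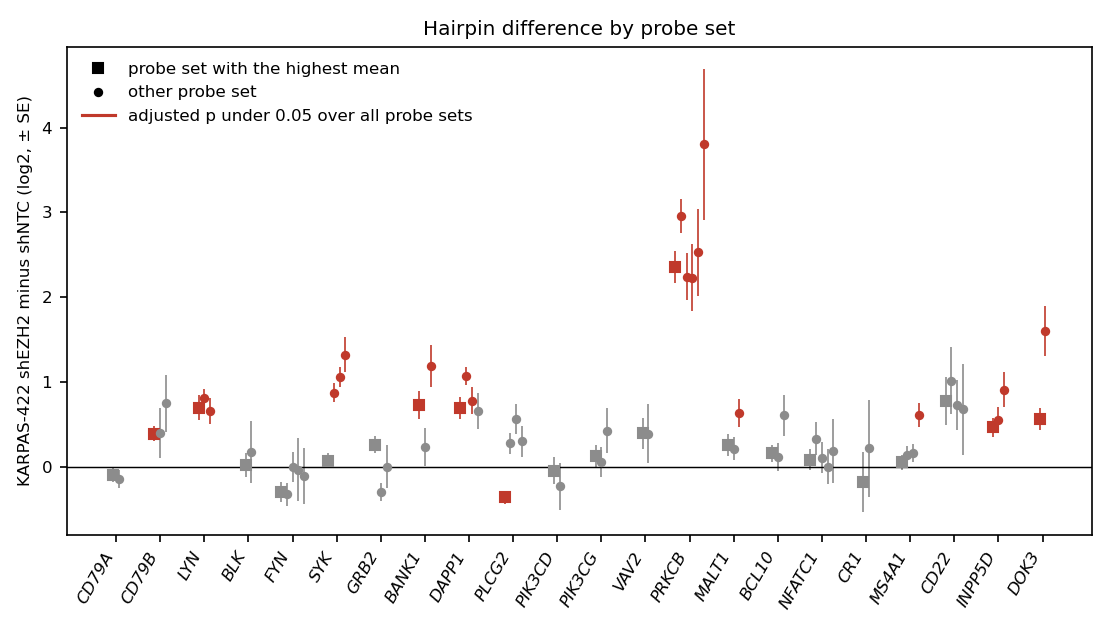
Difference shEZH2 minus shNTC on the log2 scale in KARPAS-422, with its SE as a bar (vertical axis), for every kept probe set of the 22 members with several (horizontal axis, by gene); squares mark the brightest probe set, circles the others, and red those with an adjusted p under 0.05. The 6 PRKCB probe sets lie between 2.23 and 3.80, with 3 kept only through the shEZH2 arrays, the brightest SYK probe set lies at 0.07 with the other 3 at 0.87 to 1.32, and PLCG2 has points on both sides of 0.

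In Pfeiffer, with 1 array per arm, the hairpin difference was not tested on its own. PIK3CG read 8.83 with shEZH2, against 7.38 with shNTC, and DOK3 read 7.65, against 6.33. These differences of 1.45 and 1.32 were the ones of at least 1 log2 unit, so that 2 of 30 members were higher by that much (6.67%) and 0 lower, against 3.23% and 1.48% of all genes. PIK3CG encodes the gamma catalytic subunit of phosphoinositide 3-kinase. Its 2 other probe sets differed by 1.02 and -0.62, and the other DOK3 probe set by -0.14, so that the probe sets did not share a sign. CD79A read 9.13 with shEZH2, against 8.17 with shNTC, and INPP5D read 10.05, against 9.16, differences of 0.95 and 0.89. Their other probe sets differed by less, at 0.57 for CD79A and 0.11 and 0.48 for INPP5D. RASGRP3 read 10.46 with shEZH2, against 9.75 with shNTC, a difference of 0.71. CD72 (0.11) and PRKCB (0.22), the members furthest apart in KARPAS-422, were close between the Pfeiffer arms. On the brightest probe sets the most negative differences were those of CD79B (-0.43) and CD22 (-0.41). Their other probe sets did not all share this sign, at 0.38 and -0.86 for CD79B and 0.73, 0.05 and -2.41 for CD22. The median over the 30 members was 0.16, against 0.03 over all genes, and the difference was positive for 24 of 30 members, against 54.6% of all genes. CR2 read 5.97 with shEZH2 and 5.19 with shNTC, below the median of all values.

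The hairpin difference itself differed between KARPAS-422 and Pfeiffer for 5 members. It was greater in KARPAS-422 for CD79B, PRKCB and CD72 (10% of the members, against 1.25% of all genes) and smaller for CD79A and PIK3CG (6.67%, against 0.453%). The test takes the single Pfeiffer arrays to vary like the KARPAS-422 arrays. For PRKCB the difference was 2.36 in KARPAS-422 and 0.22 in Pfeiffer, a gap of 2.14 (SE 0.32, limma adjusted p = 0.0247). A second PRKCB probe set had a gap of 2.95 (limma adjusted p = 0.0173 over all kept probe sets). The others had gaps of 0.94, 2.29, 1.41 and 3.18 and did not pass the test. For CD72 it was 3.67 in KARPAS-422 and 0.11 in Pfeiffer, a gap of 3.57 (SE 0.59, adjusted p = 0.0343). On their brightest probe sets the receptor chains parted in opposite directions. For CD79B the difference was 0.39 in KARPAS-422 and -0.43 in Pfeiffer, a gap of 0.82 (SE 0.15, limma adjusted p = 0.047), and for CD79A it was -0.09 in KARPAS-422 and 0.95 in Pfeiffer, a gap of -1.05 (SE 0.16, 0.0271). The CD79A gap was -0.71 on its second probe set (limma adjusted p = 0.149 over all kept probe sets). The CD79B gap was 0.02 and 1.60 on its other, dimmer probe sets (limma adjusted p = 0.991 and 0.248 over all kept probe sets). The first of these had a Pfeiffer difference of 0.38, so the CD79B result rests on the brightest probe set. For PIK3CG the gap was -1.32 (SE 0.22, limma adjusted p = 0.0353) on its brightest probe set and -0.96 and 1.05 on the others, which did not pass the test, and with the mean of its kept probe sets it was -0.41 (0.435). All 5 calls were lost without either KARPAS-422 shEZH2 array: without replicate 1 the adjusted p was 0.231 for CD72, 0.206 for PRKCB, 0.177 for CD79A, 0.209 for PIK3CG and 0.198 for CD79B. Without replicate 2 it was 0.225, 0.182, 0.181, 0.213 and 0.140 for the same genes. Without the shNTC replicate 1 array CD22 (gap 1.67, limma adjusted p = 0.0058) and RASGRP3 (1.52, 0.0187) passed the test as well.

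Most members differed between the 2 lines. With the control hairpin, 16 of 30 members (53.3%) were higher in KARPAS-422 than in Pfeiffer and 7 (23.3%) lower, against 21.7% and 22.5% of all genes. The median absolute difference was 1.63 for the members, against 0.54 for all genes, and the signed median was 0.56, against -0.01. In KARPAS-422 the median absolute difference between the arms was 0.28 for the same genes, against 0.33 for all genes. With a single Pfeiffer array per arm, these tests again take Pfeiffer to vary like KARPAS-422. Other B cell genes did not share a direction. EBF1, a B lineage transcription factor, read 12.94 and 12.70 in KARPAS-422 shNTC, against 6.02 in Pfeiffer shNTC. FCRLA and VPREB3 were higher in KARPAS-422 too, while PAX5, SPIB and POU2AF1 lay closer between the lines. CIITA went the other way, at 7.24 and 7.72 in KARPAS-422 shNTC, against 10.61 in Pfeiffer shNTC. So did TCL1A, at 7.44 and 5.94, against 9.94. The summed linear signal of the 8 B cell markers was 56642 and 54002 in KARPAS-422 shEZH2 and 58680 and 52397 in KARPAS-422 shNTC, against 32365 in Pfeiffer shEZH2 and 27269 in Pfeiffer shNTC, and 6 of the 8 were above the median on all arrays. That of the 8 plasma cell markers was 4051 and 4337 in KARPAS-422 shEZH2 and 6612 and 4907 in KARPAS-422 shNTC, against 49745 in Pfeiffer shEZH2 and 47446 in Pfeiffer shNTC. These sums differ between the lines, but not every marker follows its sum. The plasma cell marker SDC1 read 10.48 and 10.92 in KARPAS-422 shNTC, against 6.73 in Pfeiffer shNTC. The part of these markers in the members' differences was not tested.

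Of the receptor chains, CD79A was higher and CD79B lower in KARPAS-422. CD79A read 12.83 and 12.73 in KARPAS-422 shNTC, against 8.17 in Pfeiffer shNTC, a 24.3-fold ratio (log2 4.61, SE 0.11, limma adjusted p = 3.28e-07), and its second probe set differed by 5.43. CD79B read 12.14 and 12.24 in KARPAS-422 shNTC, against 13.98 in Pfeiffer shNTC, a log2 difference of -1.79 (SE 0.10, limma adjusted p = 1.45e-05). The 2 other CD79B probe sets were much dimmer, between 5.69 and 7.26 on all 6 arrays, and differed by 0.59 and -0.27 without passing the test.

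Of the 5 negative regulators, 4 were higher in KARPAS-422 and CD72 was lower. DOK3 read 11.17 and 11.24 in KARPAS-422 shNTC, against 6.33 in Pfeiffer shNTC, a 29.4-fold ratio (log2 4.88, SE 0.16, limma adjusted p = 7.99e-07), the largest among the members. PTPN6 (SHP-1) read 12.33 and 12.27, against 7.97, a 20.1-fold ratio (log2 4.33, SE 0.13, 7.06e-07). CD22 read 11.79 and 10.81, against 8.25, a log2 difference of 3.05 (SE 0.34, 3.32e-04), and INPP5D read 11.13 and 10.99, against 9.16, a difference of 1.90 (SE 0.14, 3.88e-05). Each of these 4 genes had both KARPAS-422 values above the Pfeiffer value. The sizes and the rank of DOK3 hold for the brightest probe sets. The other DOK3 probe set differed by 3.43, and the Pfeiffer shNTC value of 6.33 lay near the median of all values. Other probe sets of CD79A (5.43) and BANK1 (6.66) differed by more than 4.88. CD72 went the other way with the control hairpin, at 4.48 and 4.25 in KARPAS-422 shNTC, against 6.48 in Pfeiffer shNTC, a difference of -2.11 (SE 0.42, limma adjusted p = 0.00515).

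The kinases, adaptors and lipid enzymes did not share a direction. Higher in KARPAS-422 shNTC than in Pfeiffer shNTC were FYN (log2 2.54), BLK (2.10) and BTK (0.91) among the kinases, and lower was LYN (-1.06, limma adjusted p = 0.00254). SYK differed by -0.09 on its brightest probe set without passing the test, and by -0.81, -0.51 and -1.34 on the other 3, which passed it over all kept probe sets (limma adjusted p = 0.00309, 0.0255 and 0.00532). Among the adaptors BANK1 read 9.33 and 9.50 in KARPAS-422 shNTC, against 5.57 in Pfeiffer shNTC, where it lay below the median of all values, a log2 difference of 3.85 (limma adjusted p = 9.8e-06) of uncertain size, since its other probe sets gave 1.26 and 6.66. BLNK (-1.19) and GRB2 (-1.52) were lower. The catalytic subunits of phosphoinositide 3-kinase parted: PIK3CG read 11.99 and 11.69 in KARPAS-422 shNTC, against 7.38 in Pfeiffer shNTC, a 22-fold ratio (log2 4.46, limma adjusted p = 1.18e-06). The other PIK3CG probe sets differed by 4.38 and 2.25. PIK3CD, the delta subunit that is typical of lymphocytes, read 10.25 and 10.72, against 12.23, a difference of -1.74 (limma adjusted p = 3.35e-04). PLCG2 was higher by 0.31 (limma adjusted p = 0.0304), a call that was lost without the KARPAS-422 shNTC replicate 1 array (0.30, adjusted p = 0.105) and without replicate 2 (0.32, 0.0867).

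Of the exchange factors, VAV2 was higher in KARPAS-422 (1.81, limma adjusted p = 6.45e-04), VAV1 differed by -0.03, and RASGRP3 read 7.60 and 6.92 in KARPAS-422 shNTC, against 9.75 in Pfeiffer shNTC, a difference of -2.49 (limma adjusted p = 3.33e-04). MALT1 (0.90), CD37 (0.75) and CD81 (0.64) were higher in KARPAS-422, and PRKCB (0.17), BCL10 (0.22), DAPP1 (-0.31), MS4A1 (-0.17) and CR1 (0.49) did not pass the test. A further MS4A1 probe set differed by -1.04 (limma adjusted p = 0.00301 over all kept probe sets), and the mean of its kept probe sets by -0.44 (0.0296). Kept probe sets of PRKCB (-0.91 and -2.26), DAPP1 (0.22 and 0.71) and CR1 (-0.12) had the opposite sign and did not pass the test. NFATC1 was higher by 1.75 (limma adjusted p = 9.86e-05) on its brightest probe set and on 2 of the other 4, by 1.29 and 1.03, while the remaining 2 differed by 0.21 and 0.13 without passing the test. CR2 read 3.65 and 1.96 in KARPAS-422 shNTC and 5.19 in Pfeiffer shNTC, below the median of all values on each array.

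**Figure D4:**
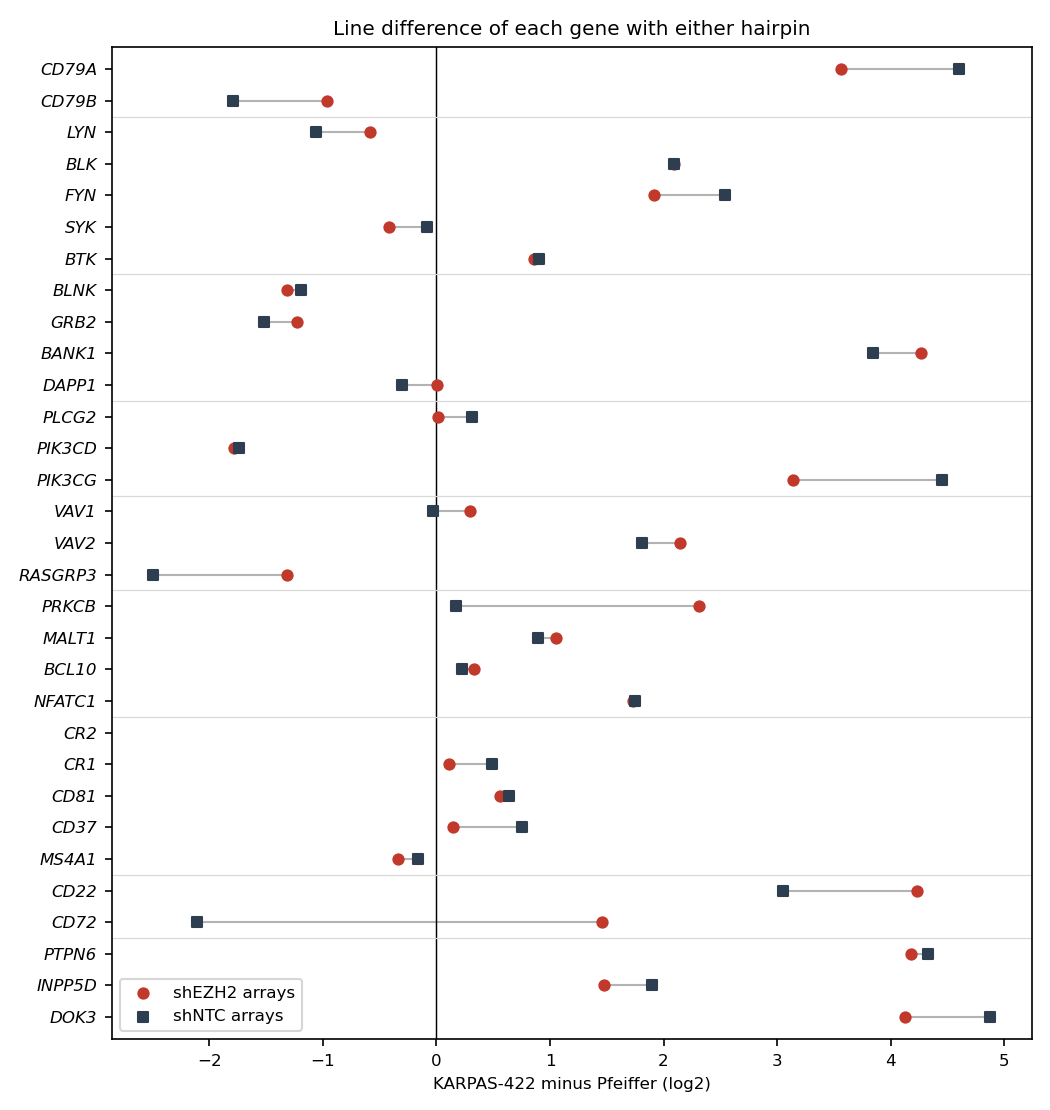
Difference KARPAS-422 minus Pfeiffer on the log2 scale (horizontal axis) for each tested member (vertical axis, by role), between the shEZH2 arrays (circles) and between the shNTC arrays (squares), with the row of CR2, not tested, empty. DOK3, CD79A, PIK3CG and PTPN6 lie above 4 with the control hairpin, RASGRP3 lies lowest at -2.49, and CD72 lies at 1.46 with shEZH2 and at -2.11 with shNTC.

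Between the shEZH2 arrays of the lines, 16 of 30 members were higher in KARPAS-422 and 8 lower, against 22.3% and 24.7% of all genes. The median absolute difference was 1.31 for the members, against 0.57 for all genes. CD72 was the member whose called line difference turned round. It read 8.11 and 7.98 in KARPAS-422 shEZH2, against 6.58 in Pfeiffer shEZH2, a difference of 1.46 (SE 0.42, limma adjusted p = 0.024). PRKCB read 10.81 and 10.62 in KARPAS-422 shEZH2, against 8.40 in Pfeiffer shEZH2, a difference of 2.31 (SE 0.23, limma adjusted p = 1.85e-04). For RASGRP3 the lines lay closer with shEZH2, at -1.31 (limma adjusted p = 0.00692), than with shNTC, at -2.49, and the gap between those values did not pass the test (1.18, adjusted p = 0.194). The line differences of the negative regulators other than CD72 stayed large: 4.13 for DOK3, 4.18 for PTPN6, 4.24 for CD22 and 1.48 for INPP5D.

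Of 140 other genes of the pathway, in 6 lists, 114 were tested. The lists, like the members, were chosen with earlier results of these data known. In KARPAS-422, 28 of them rose with shEZH2 (24.6%) and 7 fell (6.14%), against 13.1% and 12.3% of all genes, and their median difference was 0.08, against -0.02 over all genes. The 28 include CEACAM1, whose direction the filter fixed, and RRAS, whose direction the filter favoured, and 26 remain without them. In Pfeiffer the median difference was 0.08, against 0.03 over all genes, with 2 genes higher (1.75%) and 0 lower by 1 log2 unit, against 3.23% and 1.48% of all genes. The 2 were the adaptor SLA, at 8.08 with shEZH2, against 7.02 with shNTC, and the inhibitory receptor CD300A, higher by 2.47 with shEZH2 and dim with shNTC, and both were chosen for naming after their values were seen. The hairpin difference itself was greater in KARPAS-422 than in Pfeiffer for IFITM1, an interferon-induced membrane protein (0.91, limma adjusted p = 0.0476), and for PECAM1 (2.55, 0.0438). As for the members and all other genes tested, both calls were lost without either KARPAS-422 shEZH2 array. Between the lines with the control hairpin, 40 were higher in KARPAS-422 (35.1%) and 26 lower (22.8%), against 21.7% and 22.5% of all genes.

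Among 29 other proximal and adaptor genes, 7 rose (24.1%) and 1 fell (3.45%) in KARPAS-422, against 13.1% and 12.3% of all genes. GAB2, a docking protein for phosphoinositide 3-kinase and SHP-2, read 9.49 and 9.02 in KARPAS-422 shEZH2, against 7.55 and 7.21 in shNTC, a difference of 1.88 (limma adjusted p = 0.00278). The GRB2-binding adaptor THEMIS2 differed by 1.55 (adjusted p = 0.00533, and 0.062 without shEZH2 replicate 1), and the membrane adaptor LAT2 by 0.89 (0.0316). The adaptor NCK2, which links receptors to actin, fell by 1.11 (adjusted p = 0.021), at 5.12 and 5.34 in shEZH2, below the median of all values, against 6.20 and 6.48 in shNTC.

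Of 17 calcium and NFAT genes 4 rose (23.5%) and 2 fell (11.8%), against 13.1% and 12.3% of all genes, so the share that fell lay near that of all genes. Those that rose included ITPR1, an inositol trisphosphate receptor of the endoplasmic reticulum (1.06, limma adjusted p = 0.0166), the transcription factor NFAT5 (0.73, 0.00616) and the calcium sensor STIM2 (0.57, 0.00795). The calcineurin subunit PPP3R1 (-0.41, limma adjusted p = 0.0204) and NFATC2 (-0.39, 0.032) fell. Of 15 RAS, RAC and MAP kinase genes 4 rose (26.7%, against 13.1% of all genes), RRAS among them. A further 2 fell (13.3%), near the 12.3% of all genes. DUSP6, a phosphatase of ERK, read 12.59 and 12.25 in KARPAS-422 shEZH2, against 11.46 and 10.90 in shNTC, a difference of 1.24 (limma adjusted p = 0.00692). MAP3K1 rose by 1.19. RRAS read 6.82 and 6.85 in KARPAS-422 shEZH2, against 5.11 and 5.36 in KARPAS-422 shNTC, and 6.69 in Pfeiffer shNTC. It needed a KARPAS-422 shEZH2 array above the median to reach the filter, so the filter favoured its positive difference of 1.60. MAPK3 (ERK1) and HRAS fell by 0.54 and 0.46.

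Of 15 phosphoinositide 3-kinase and AKT genes 3 rose (20%) and 0 fell in limma, against 13.1% and 12.3% of all genes. At an unadjusted p under 0.05, 0 of the 15 were lower too. Those that rose were the regulatory subunit PIK3R3 by 1.15 (limma adjusted p = 0.00329), PDPK1 by 0.40 and GSK3B by 0.34. Of 21 NF-kappaB genes 7 rose (33.3%) and 2 fell (9.52%), against 13.1% and 12.3% of all genes, with a median of 0.29, against -0.02 over all genes. CYLD, a deubiquitinase that restrains NF-kappaB, read 10.63 and 10.58 in KARPAS-422 shEZH2, against 9.32 and 9.12 in shNTC, a difference of 1.38 (limma adjusted p = 7.3e-04). IKBKB, the kinase of the inhibitor of NF-kappaB, rose by 0.99 (limma adjusted p = 0.00491) and PRKCH by 1.65 (0.0336), with PRKCH controls at 8.24 and 6.74. The protein kinase C isoform PRKCD fell by 0.64 and the inhibitor NFKBIB by 0.43. Genes of this list that rose included both an activator and an inhibitor of the branch.

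Of 17 other inhibitory genes 3 rose (17.6%) and 0 fell in limma, against 13.1% and 12.3% of all genes. Again 0 were lower at an unadjusted p under 0.05. The share that rose lay near that of all genes, the more so without CEACAM1, whose direction the filter fixed. PECAM1, a receptor that recruits SHP-2, read 10.26 and 9.68 in KARPAS-422 shEZH2, against 7.10 and 6.91 in shNTC, a difference of 2.97 (limma adjusted p = 6.73e-04), and 5.94 in Pfeiffer shEZH2, against 5.52 in Pfeiffer shNTC. PTPN22, a phosphatase of SRC-family kinases, rose by 0.83 (limma adjusted p = 0.00603). CEACAM1, an inhibitory adhesion receptor, read 7.34 and 6.54 in KARPAS-422 shEZH2, against 3.29 and 1.23 in shNTC, and passed the filter only through the shEZH2 arrays, so that its difference of 4.68 had to be positive and has no firm size. Of the 25 called genes named from the 6 lists, 22 had an adjusted p above 0.05 without shEZH2 replicate 1 or without shEZH2 replicate 2, and GAB2, CYLD and PECAM1 stayed below it without any of the 4 KARPAS-422 arrays. PECAM1 differed by 0.48 (limma adjusted p = 0.11) where all 6 arrays had to lie above the median, which its brightest probe set did not meet.

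Markers of other cell types were partly expressed in these lines. Of 10 T and NK cell markers, 6 lay below the median of all values on every array, and their summed linear signal was 4427 and 4022 in KARPAS-422 shEZH2 and 6452 and 7038 in KARPAS-422 shNTC, against 12732 in Pfeiffer shEZH2 and 11804 in Pfeiffer shNTC. CD3D and CD3G accounted for most of it in KARPAS-422, and CD8A in Pfeiffer, at 13.60 with shEZH2 and 13.49 with shNTC. The sum over 9 myeloid markers was 706 and 889 in KARPAS-422 shEZH2, against 397 and 329 in KARPAS-422 shNTC, and 489 in Pfeiffer shEZH2, against 334 in Pfeiffer shNTC, with CD14, LYZ, MPO, S100A9 and FCN1 below the median on every array. MS4A7 was the myeloid marker that stood apart, at 9.03 and 9.24 in KARPAS-422 shEZH2, against 6.22 and 5.58 in shNTC. The sum over 10 fibroblast and epithelial markers was 13032 and 11625 in KARPAS-422 shEZH2, against 13992 and 13037 in KARPAS-422 shNTC, and 9357 in Pfeiffer shEZH2, against 11652 in Pfeiffer shNTC. DCN accounted for most of it in KARPAS-422, at 13.43 to 13.71, and EPCAM in Pfeiffer, at 12.98 with shEZH2 and 13.33 with shNTC. The part of these markers in the members' differences was not tested.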

How the data were processed

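RNA of 6 samples was measured on 1 Affymetrix HG-U133 Plus 2.0 array each. The deposited values are log2 signals from MAS5, per the submitters' processing notes, which give no version. The log base was read from the values: the 2% trimmed mean of the linear signals was 500 on all 6 arrays, and no other scaling across arrays was apparent. No detection calls or scan dates were used here.

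Of 54675 probe sets, the 41091 with a single gene symbol were used, and those above 6.21 (the median of the deposited table) on 2 or more arrays passed the filter. The brightest passing probe set, by mean, stood for its gene. No pseudocount was added. Differences were tested with limma 3.58.1 under R 4.3.3 (lmFit and eBayes with an intensity trend), two-sided, on 4 groups over 6 arrays with 2 residual and 5.24 prior degrees of freedom. Adjusted p-values are Benjamini-Hochberg over 13036 genes, or over 25186 probe sets where so named, with a threshold of 0.05. Differences and their errors are on the log2 scale. The code was tested on simulated data with known changes. All 32 members are named, as are up to 3 called genes per direction of each other pathway list with the largest KARPAS-422 differences; genes named as markers, and the arrays named beside lost calls, were picked after their values were seen. The members and lists were chosen with earlier results of these data known. Alternatives covered normalization, filter, probe set choice, trend, replicate block and each KARPAS-422 array left out. Promoters came from the RefSeq table for GRCh38.p14.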

Additional observations from a re-analysis of the deposited data

Results flagged for a closer look

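These 7 results concern a difference between the 2 lines in the response to the hairpin. Each was tested on the brightest probe set, as the KARPAS-422 difference minus the Pfeiffer difference on the log2 scale. The value was 3.57 for CD72 (limma adjusted p = 0.0343), 2.14 for PRKCB (0.0247) and 0.82 for CD79B (0.047), all greater in KARPAS-422. It was -1.05 for CD79A (limma adjusted p = 0.0271) and -1.32 for PIK3CG (0.0353), both smaller in KARPAS-422. PECAM1, from the list of other inhibitory genes, had 2.55 (limma adjusted p = 0.0438), from 2.97 in KARPAS-422 and 0.42 in Pfeiffer. IFITM1, from the list of other proximal and adaptor genes, had 0.91 (limma adjusted p = 0.0476), from 0.73 in KARPAS-422 and -0.18 in Pfeiffer. All 7 calls were lost without either KARPAS-422 shEZH2 array, as were those of all other genes tested. That of PECAM1 was also lost with quantile normalization (2.47, limma adjusted p = 0.0501), with cyclic loess (2.48, 0.0534) and with all 6 arrays required above the median (0.39, 0.603). Pfeiffer had 1 array per arm, so its own spread did not enter these tests. No group had the 4 arrays needed to look for a single array standing apart.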

How the results depend on the processing

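As reported, 9 of 30 members were higher and 1 lower in KARPAS-422 at a limma adjusted p under 0.05, against 13.1% and 12.3% of all genes. The counts were 11 and 0 with quantile normalization (all genes 11.3% and 12.2%) and 12 and 0 with cyclic loess (12.2% and 9.25%). They were 9 and 2 with median centring (11.3% and 15.2%) and 11 and 0 with the mean of kept probe sets (12.4% and 9.45%). With all 6 arrays required above the median they were 8 and 2 of 28 members (16.7% and 18.6%). They were 9 and 2 with KARPAS-422 arrays alone (13.3% and 12.6%), and 3 and 0 without an intensity trend (4.5% and 1.03%). These scalings moved the median of all genes by less than 0.1. With 1 KARPAS-422 array left out, the counts ranged from 3 to 9 higher and stood at 0 lower. At an unadjusted p under 0.05 each of these limma counts of 0 was 1 to 4. The lowest counts, 3 and 5, came without shEZH2 replicate 1 and replicate 2. The difference between lines in the hairpin response was reported at 3 higher and 2 lower, against 1.25% and 0.453% of all genes. Without a filter the counts were 0 and 0 of 31 members (all genes 0.475% and 0.101%), and 0 and 0 without an intensity trend (0.00767% and 0%). They were 1 and 0 with the mean of kept probe sets (0.928% and 0.23%). Without probe sets ending in _x_at or _s_at they were 0 and 2 of 24 members (1.14% and 0.406%). With median centring they were 3 and 1 (1.41% and 0.338%), and with 64 added to each signal 2 and 1 (1.21% and 0.284%). Calls also changed with 1 array left out, as described above. At an unadjusted p under 0.05, these limma counts of 0 stood at 3 or 4 higher and 2 to 5 lower. Between lines with the control hairpin, 7 of 30 members were lower (23.3%, against 22.5% of all genes). Without _x_at and _s_at probe sets it was 4 of 24 (16.7%, against 22.3%). In Pfeiffer, 2 members past 1 log2 unit (3.23% of all genes) became 1 with 64 added (0.851%) and 0 with the mean of kept probe sets (3.34%).

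With the replicate number as a block the counts were 10 higher and 2 lower in KARPAS-422, CD22 among them (limma adjusted p = 0.0444), against 9 and 1 without it. Of all genes, 13.6% were higher and 14.2% lower with the block. The labels do not say that a number marks a shared infection or day, and the deviations of same-numbered arrays correlated over genes at r = 0.00651 in 2 pairs, so the numbers were not taken to pair the arrays.

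Some directions turned. In KARPAS-422 these were PLCG2 with the mean of kept probe sets (0.19, limma adjusted p = 0.217), and without _x_at and _s_at probe sets LAT2 (-0.10, 0.879) and NFKBIB (0.22, 0.791). CD79B between lines was 0.59 (0.236) without those probe sets, and between the shEZH2 arrays CD72 was 1.46 (0.024), RRAS 0.80 (0.181) and CYLD 0.25 (0.211). The cause was not tested. Of the members' values under all alternatives, 453 of 502 in KARPAS-422, 505 of 532 between lines and 437 of 472 for the difference in response kept their direction, where called, and their side of the threshold. Uncalled values changed sign in 19, 10 and 33 cases. EZH2 kept its direction and call in KARPAS-422 under every alternative that held its probe set. With 6 arrays and no detection calls, small differences of dim genes could not be resolved.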
